A study of Bos taurus with 47 samples.

Results

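FABP3 encodes the heart-type fatty acid binding protein, 1 gene of 24616 identifiers in a table of transcript levels from cattle tissues. It was chosen by its identifier, ENSBTAG00000016819, because earlier results of these data showed it high in heart and in the lactating mammary gland. Its levels across tissues, between heart and muscle and between the glands are therefore given as descriptions, with no test. The deposited table holds identifiers alone, and the name FABP3 for this one was taken from outside it. RNA came from 47 tissue samples of Holstein cattle with 15 tissue labels. The values are FPKM, fragments counted on a transcript, divided by its length in kilobases and by the library's fragments in units of 1000000, so they are relative to the library's total.

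The same 4 animals, 2 males (called A and B here) and 2 females, gave heart, muscle, liver, kidney, spleen, lung, ileum, rumen, adipose tissue and frontal cortex. One female gave the lactating mammary gland and is called the lactating cow, and the other gave the dry mammary gland and is called the dry cow. Ovary and uterus came from both females. Lymphocytes came from a male that gave no other tissue. All animals carry the breed label Holstein, and the labels used here give no age, treatment or stage of lactation. The 2 glands and lymphocytes have 1 library each among the samples used. The deposited table has 4 more columns, 2 named for the mammary gland of these cows and 2 for lymphocytes, which match no sample's title and were not used.

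Fatty acid binding proteins are small proteins of the cytosol that bind long-chain fatty acids, which dissolve poorly in water, and carry them between membranes, enzymes and nuclear receptors. The heart-type member is abundant in cardiac muscle, where fatty acids are the main fuel, and is released into blood when heart muscle cells are damaged. It is also made by oxidative skeletal muscle fibres, by neurons and by the secretory epithelium of the lactating mammary gland, which takes up and makes fatty acids for milk fat. Bulk tissue was sequenced, so fewer cells that make a transcript and less of it per cell cannot be told apart.

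FABP3 was above 0 in all 47 libraries and at or above 1 FPKM in 45 of them. It spanned from 0.763 FPKM in the liver of the dry cow to 3634 FPKM in the heart of male A. The label means differed by up to 1833-fold. In rank of abundance within a library, FABP3 was gene 8 in the lactating gland, gene 30 to 48 in the hearts, gene 262 to 637 in muscle and gene 7668 to 11596 in liver. In the 40 libraries of tissues from all 4 animals, 97.8% of the variance of FABP3 on the log2(FPKM + 1) scale lay between tissues, 0.225% between animals and 1.96% in the remainder. The medians over 16503 genes were 93.3%, 1.01% and 5.09%. FABP3 was chosen for its pattern over tissues, so nothing is read from its larger share between tissues.

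**Figure D1:**
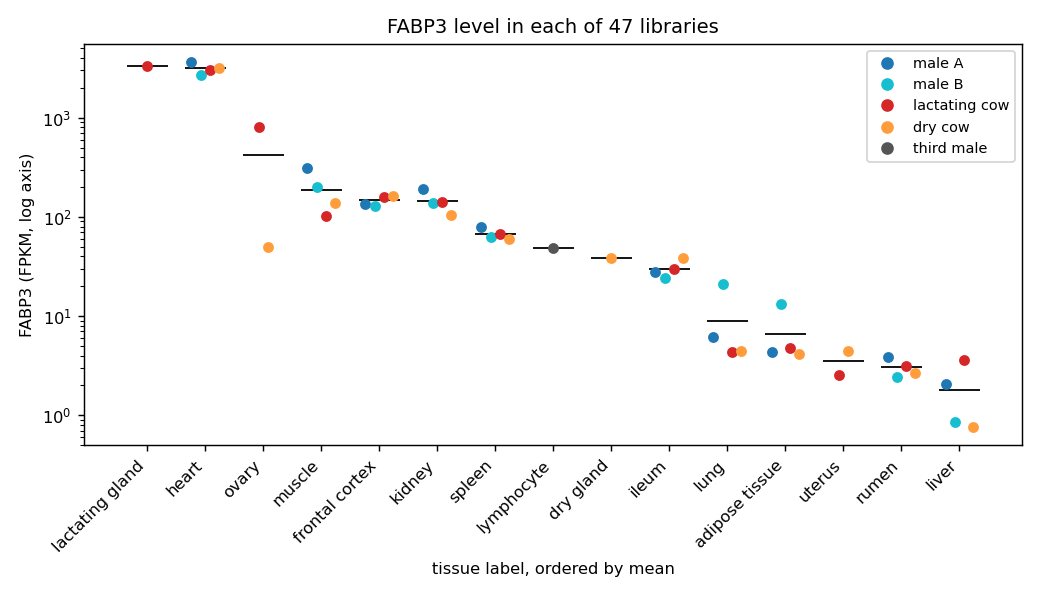
FABP3 in each of the 47 libraries (points, FPKM on a log axis, coloured by animal), with the label mean as a bar and labels ordered by mean. The lactating gland (3324 FPKM) lies within the range of the 4 hearts (2671 to 3634 FPKM), and the pair of ovaries is far apart (799 and 49.4 FPKM).

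The lactating gland and heart formed the top of the order. The lactating gland held 3324 FPKM in its single library. The hearts held 3634 FPKM in male A, 2671 in male B, 3062 in the lactating cow and 3207 in the dry cow, a mean of 3144 ± 398 (SD, n = 4). The gland thus lay inside the range of the hearts, at 1.06 times their mean. The next label, ovary, was 7.41-fold below heart.

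The counts here cover genes of the 20574 above 0 with a mean of at least 1 FPKM in both heart and the lactating gland. FABP3 was the 1 gene of these whose heart and gland means both exceeded each of the other 13 label means by a factor of 4 or more. At a factor of 2 the count was also 1. After quantile normalization, which gives all libraries the same distribution of values, it was 3, FABP3 included. Heart and the lactating gland were simply the highest pair of labels in 7 genes. One of these labels rests on 1 library, and the gene was chosen for this pattern, so the counts describe it and support nothing.

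Ovary, muscle, frontal cortex and kidney followed, and their ranges overlapped from each label to the next. The ovary of the lactating cow held 799 FPKM and that of the dry cow 49.4, so the ovary mean of 424 describes neither. Without the lactating cow's library, ovary stands at 49.4 FPKM, beside lymphocytes. Muscle held 311 FPKM in male A, 202 in male B, 102 in the lactating cow and 137 in the dry cow (188 ± 92.0, SD, n = 4). Frontal cortex was steadier, with 136, 130, 158 and 164 FPKM in the same order of animals (147 ± 16.6). Kidney held 192, 137, 143 and 104 FPKM (144 ± 36.5).

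The middle of the order was made of labels whose values did not overlap with their neighbours. Spleen had 78.4 FPKM in male A, 62.2 in male B, 67.6 in the lactating cow and 60.3 in the dry cow (67.1 ± 8.11, SD, n = 4), below every kidney. The lymphocyte library had 48.5 FPKM and the dry gland 38.9, both below every spleen and above every ileum. Ileum had 28.2, 24.2, 30.1 and 38.1 FPKM (30.2 ± 5.84), above every lung. The highest ileum and the dry gland are close, at 38.1 and 38.9 FPKM, and single libraries have no spread of their own.

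Lung, adipose tissue, uterus, rumen and liver formed the low end, and each overlapped the next. Lung held 6.15 FPKM in male A, 21.2 in male B, 4.32 in the lactating cow and 4.39 in the dry cow, and adipose tissue 4.32, 13.1, 4.74 and 4.16 FPKM. Male B stands out in both tissues, and without him the means fall from 9.01 to 4.96 FPKM in lung and from 6.59 to 4.41 in adipose tissue. Uterus had 2.57 and 4.47 FPKM. Rumen had 3.87, 2.41, 3.17 and 2.68 FPKM, all within 1.61-fold. Liver had 2.07, 0.849, 3.57 and 0.763 FPKM, a range of 4.68-fold, with the lactating cow highest. Over the 15 labels, 8 of the 14 neighbouring pairs in the order had overlapping ranges.

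The spread between animals differed among tissues. Measured as the SD of log2(FPKM + 1) over 4 libraries, it was 0.16 in frontal cortex, 0.17 in spleen, 0.18 in heart and 0.26 in ileum. In those tissues between 33.9% (heart) and 44.8% (frontal cortex) of the genes with a mean of at least 1 FPKM had a smaller SD. In muscle the SD of FABP3 was 0.69, larger than that of 98.1% of such genes. In lung it was 0.98 and larger than that of 98.8%, in liver 0.65 and 97.4%, and in adipose tissue 0.70 and 93.5%. Kidney (0.36, 86.2%) and rumen (0.23, 58.4%) lay between. FABP3 thus varied less than most genes in heart and more than most in muscle, lung, liver and adipose tissue. In lung and adipose tissue male B's library (21.2 and 13.1 FPKM) stands apart. The other animals lay at 4.32 to 6.15 FPKM in lung and 4.16 to 4.74 in adipose tissue. The liver values, 0.763 to 3.57 FPKM, are low and have no counting interval.

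Heart and skeletal muscle both burn fatty acids, and the comparison shows how far they differ in FABP3. Heart exceeded muscle in each animal, 11.7-fold in male A, 13.2-fold in male B, 30.0-fold in the lactating cow and 23.3-fold in the dry cow. The ratio of the means was 16.7, and the lowest heart was 8.57-fold above the highest muscle. On the scale of log2(FPKM + 1) the difference was 4.17 ± 0.65 (SD of the within-animal differences, n = 4). The hearts varied little (1.36-fold), and the ratio varied mainly with muscle (3.05-fold).

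Heart against muscle moved many genes. Of 11877 genes tested with limma, 26.3% were higher in heart by at least 2-fold at an adjusted p under 0.05, 6.83% were higher in muscle, and 61.4% had no overlap between their libraries. The median difference of all genes was 0.48 on the log2 scale, and FABP3 ranked 90 by its difference. The rule that chose FABP3 used this contrast, so nothing is read from that rank. The 39 genes more abundant than FABP3 in heart were mostly abundant in muscle as well: 35 of them also exceeded FABP3 in muscle, and 4 had a larger ratio of heart to muscle. The counts of 35 and 4 rest on the values that the rule used and are description only. Quantile normalization reduced the FABP3 difference to 3.32 on the log2 scale, and heart was 2195 FPKM on that scale. It also changed the counts: 1579 genes were higher in heart and 1365 in muscle of 13330 tested, in place of 3120 and 811, and the median difference of all genes was 0.02.

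**Figure D2:**
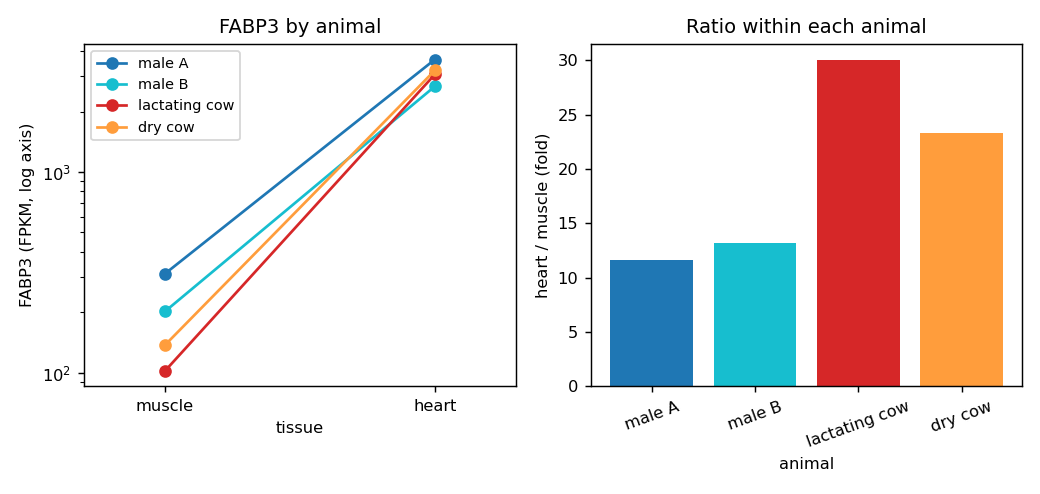
FABP3 in muscle and heart of each animal, with the values in FPKM on a log axis (left, lines join the same animal) and as the ratio of heart to muscle (right, bars from 0). The ratio is 11.7 and 13.2 in the males and 30.0 and 23.3 in the females.

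The glands differ in milk production: one was lactating, the other dry. FABP3 had 3324 FPKM in the lactating and 38.9 FPKM in the dry gland, an 85.4-fold difference, or 6.38 on the scale of log2(FPKM + 1). It ranked 6 by this difference among the 13002 genes that reached 1 FPKM in a gland. Of these genes, 0.831% were higher by 4-fold or more in the lactating gland, and 26.4% in the dry gland. FABP3 belongs to the first group by the contrast used to choose it. After quantile normalization the genes past 4-fold numbered 448 (lactating gland higher) and 429 (dry gland higher), in place of 108 and 3437. One library per gland was used, so the difference has no replicate check here, and cow and lactation stage cannot be told apart.

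FABP3 followed directly after the genes that dominate the lactating library. The 7 genes above it had between 28404 and 157804 FPKM there, and FABP3 reached 11.7% of the lowest of them. Their ratios of lactating to dry gland ran from 31.5 to 148, and 4 of the 7 had a larger ratio than FABP3. The gene after FABP3 had 2638 FPKM. In the dry gland FABP3 stood at 11711 ppm (parts in 1000000) of its lactating level. The 9 genes that had 500 FPKM or more in the lactating gland and exceeded all other labels 20-fold stood there at a median of 11084 ppm. These 9 include all 7 genes above FABP3 and are no separate set. The 20-fold limit itself keeps these genes low in the dry gland.

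How high FABP3 stood in lactation depended on the share held by the leading genes. The 10 most abundant genes took 75.6% of the summed FPKM of the lactating gland and 8.08% of that of the dry gland. FABP3 took 0.354% of the lactating total and 0.341% of the heart total on average. Set against the total without the 10 most abundant genes of each library, it stood at 1.45% in the lactating gland, 0.385% to 0.510% in the hearts and 0.00618% in the dry gland. In the lactating gland FABP3 is gene 8, so it is itself among the genes left out and 1.45% is no share of that total. In the hearts and the dry gland it stays in the total. On that base the lactating minus dry difference was 7.84 on the log2 scale, and the lactating gland stood 1.72 above heart in place of 0.08. Quantile normalization gave 7.40 and 1.35, and rescaling to the same sum gave 5.93 and 0.05. The gland and heart are thus level in FPKM as deposited or rescaled to the same sum, and differ on the other scales.

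The same pair of cows was compared in the 12 other tissues they both gave, as a measure of how far FABP3 differed between them elsewhere. In 10 of these tissues the ratio of the lactating to the dry cow stayed between 0.575 (uterus) and 1.38 (kidney). The heart ratio was 0.955 and the adipose ratio 1.14. In liver it was 4.68, from 3.57 against 0.763 FPKM. In ovary it was 16.2, from 799 against 49.4 FPKM. The ovaries differed widely in general, with 1.94% of 13065 genes at least 4-fold and 0.253% at least 16-fold higher in the lactating cow. Genes past 4-fold numbered 254 with the lactating cow higher and 381 with the dry cow higher. FABP3 was higher in the lactating cow by 3.99 (log2), and 34 genes, FABP3 included, were higher there by at least as much. Genes restricted to the lactating gland stood at 0 ppm of their gland level in the ovary of the lactating cow, at 1405 ppm in that of the dry cow and at 467 ppm in the liver of the lactating cow. Scaled to the FABP3 level of the lactating gland, these traces amount to 0, 4.67 and 1.55 FPKM. Their part in the FABP3 levels of those libraries was not tested.

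**Figure D3:**
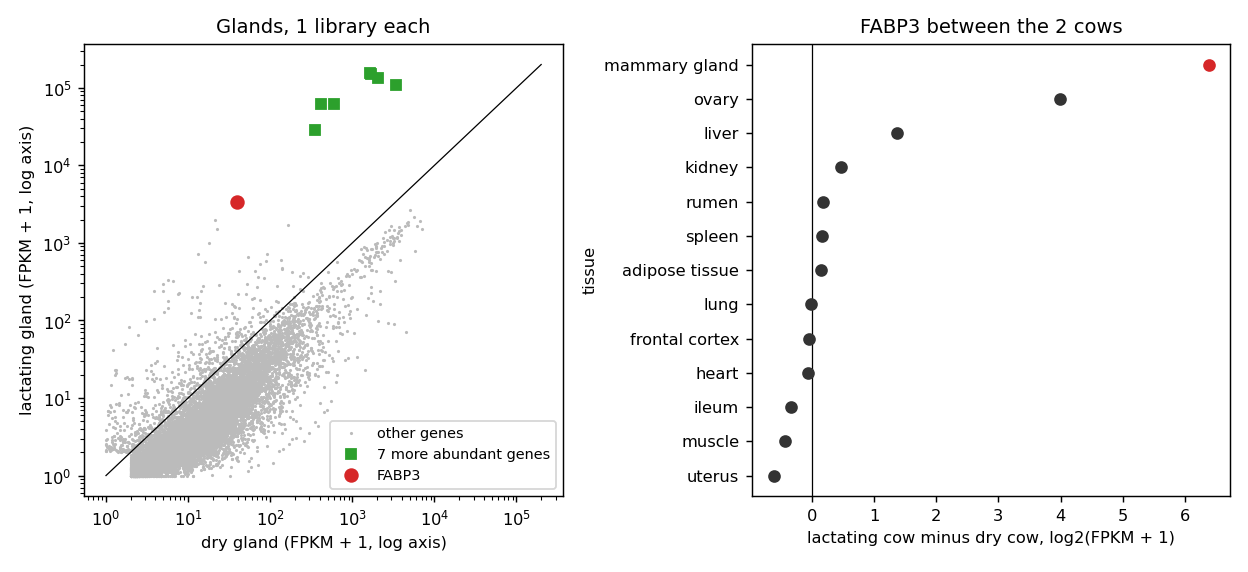
Left, all genes with at least 1 FPKM in a gland, lactating against dry (FPKM + 1, log axes, line of equality), with FABP3 and the 7 more abundant genes marked. Right, the FABP3 difference between the lactating and the dry cow in log2(FPKM + 1), by tissue. The mammary gland (6.38) and ovary (3.99) lie apart from the rest.

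Most libraries held traces of transcripts of other tissues, and the low FABP3 levels were therefore set beside those of genes restricted to heart. There were 4 such genes, of which FABP3 is not one, chosen by a heart mean of 500 FPKM or more that exceeded all other label means 100-fold, and their heart means were 5739 to 27480 FPKM. In the 43 libraries outside heart their median level was 64.2 to 283 ppm of the heart mean, except in the kidney of the lactating cow with 1692 ppm. Scaled to the FABP3 level of heart, these traces amount to 0.202 to 0.891 FPKM, and to 5.32 FPKM in that kidney, where FABP3 had 143 FPKM. FABP3 exceeded this level in all 43 libraries, though the 100-fold limit itself keeps the 4 genes low outside heart. The smallest ratio was 2.99, in the liver of the dry cow, and in the 18 libraries of the 5 lowest labels it ran up to 40.4. In the other 25 libraries FABP3 was at least 26.9 times the trace level. Male B's lung (187 ppm) and adipose tissue (104 ppm) held heart traces within the range of the other libraries. The part of these traces in the FABP3 levels was not tested.

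**Figure D4:**
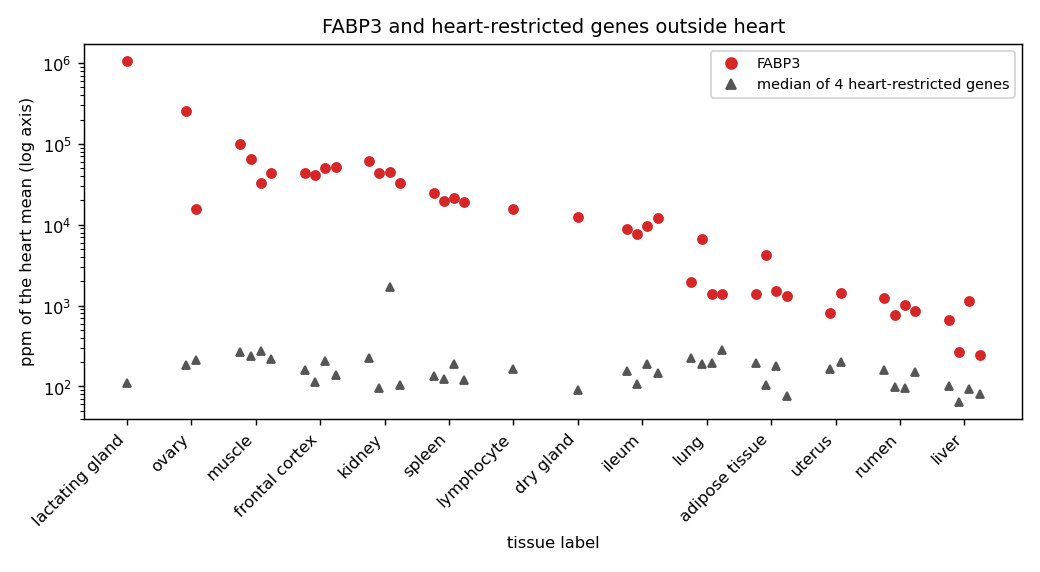
FABP3 (circles) and the median of 4 heart-restricted genes (triangles) in each library outside heart, as ppm of the heart mean on a log axis. FABP3 lies above the triangles in all 43 libraries, most closely in liver. The 4 genes were chosen for being low outside heart.

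Traces of liver genes set 10 libraries apart, the lymphocytes and 9 of the lactating cow, in which these genes stood at 33.3 ppm or less against at least 61.0 ppm in the others (in the liver libraries, none of which was low, traces of rumen genes were read instead). The labels name no batch. The ovary with 799 FPKM is among the 10. So is the heart of the lactating cow, without which heart had a mean of 3171 FPKM and a heart minus muscle difference of 4.18. The lactating gland, muscle, liver and rumen of that cow are not among them.

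Sex was not part of the choice of FABP3 and was tested in the 10 tissues with 2 males and 2 females. FABP3 was called in 0 of 10 tissues by limma at an adjusted p under 0.05, over 16503 genes. Of all genes, 24.3% were called in ileum, 11.7% in adipose tissue, 3.31% in heart, 1.99% in lung, 1.18% in kidney, 1.02% in spleen, 0.594% in muscle, 0.491% in liver, 0.37% in rumen and 0.248% in frontal cortex. At an unadjusted p under 0.05 it passed in 2 tissues, lung and muscle. Muscle missed that limit in limma fits after quantile normalization (unadjusted p = 0.0514) and with a pseudocount of 0.1 (unadjusted p = 0.0535). It also missed it without the 10 libraries low in liver traces (limma unadjusted p = 0.0507). Fits that leave 1 animal of a sex in the tissue are not counted here. Males did not overlap females in 4 tissues, lung and muscle with males higher, and ileum and frontal cortex with females higher. Of all genes, 37.8% did not overlap in lung, 33.5% in muscle, 53.6% in ileum and 38.9% in frontal cortex, so this state is common with 2 against 2 animals. The fit gives each gene 1 spread shared by all 10 tissues. The 95% intervals therefore reached 0.90 to either side of the difference on the log2 scale in every tissue. Only differences beyond that size leave an interval without 0. The SD of FABP3 itself ran from 0.16 in frontal cortex to 0.98 in lung. These intervals and p-values thus do not measure the spread within a tissue: they are narrow for lung and wide for heart.

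In muscle the males held 311 and 202 FPKM and the females 102 and 137. The male minus female difference was 1.08 ± 0.44 (SE, 95% interval 0.18 to 1.97, limma adjusted p = 0.558), and it was higher in 2 of 2 males than in both females. Set against the mean of the other 9 tissues, the muscle difference was 0.90 ± 0.46 (limma adjusted p = 0.822, a test that called 0.309% of genes). The lung difference, set so, was 1.07 ± 0.46 (limma adjusted p = 0.429, 0.679% of genes called). Both contrasts compare tissues of the same animals and were fitted only without the animal as a block. In lung the difference was 1.23 ± 0.44 (0.34 to 2.13, limma adjusted p = 0.160). It rests on male B: without him it was 0.42, and without male A it was 2.05. Each of these fits leaves 1 male, so only the size is given. In the alternatives that keep 2 animals of each sex in lung, the limma adjusted p ran from 0.109 to 0.296. Without the 10 libraries low in liver traces, the difference was 1.08 in muscle (limma adjusted p = 0.692). It was 1.22 in lung, where that setting leaves 1 female.

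Adipose tissue gave 0.67 ± 0.44 (limma adjusted p = 0.386), which became -0.03 without male B. Heart gave -0.01 ± 0.44, with an interval from -0.91 to 0.89, and 0.083 after rescaling the libraries to the same sum. Ileum (-0.36) and frontal cortex (-0.28) were lower in both males than in both females, with limma adjusted p of 0.608 and 1. Kidney, spleen, rumen and liver lay between -0.25 and 0.41. Averaged over the 10 tissues, males exceeded females by 0.27 on the log2 scale, with p = 0.333 in the two-sided exact permutation test over 4 animals, the smallest p this design allows.

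**Figure D5:**
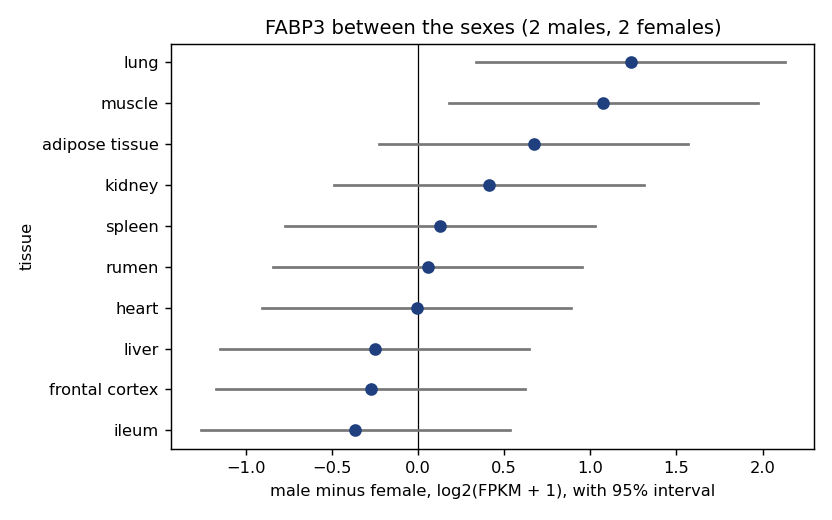
Male minus female difference of FABP3 in log2(FPKM + 1) for each of 10 tissues (points) with its 95% interval from limma (lines). The intervals of lung and muscle lie above 0, and neither passed the adjusted threshold. All intervals use a spread shared by the 10 tissues, not each tissue's own.

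The profile of FABP3 over tissues had few close matches. Pearson's r of log2(FPKM + 1) over the 15 label means was computed against 12717 genes with a mean of at least 10 FPKM in some label, and 3 reached 0.7. ENSBTAG00000016444 came first with r = 0.74, with 123 FPKM in the lactating gland, 39.0 in heart, 24.1 in muscle, 9.80 in the dry gland and 1.47 in ovary. ENSBTAG00000005730 came next with r = 0.74, with 195 FPKM in the lactating gland and 93.1 in heart but 62.2 in the dry gland and 52.8 in ovary. Over the 47 libraries Spearman's rho with FABP3 was 0.73 and 0.48 for these genes. The highest rho of any gene, 0.82, was that of the third gene past 0.7 (r = 0.72), which was highest in muscle with 35.6 FPKM and had 18.6 in heart and 17.2 in the lactating gland. All profiles share the same libraries, and no name could be paired with these identifiers.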

How the data were processed

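The authors deposited 1 table of FPKM for 24616 Ensembl identifiers in 51 columns. Of these, 47 matched a sample's title and 4, which matched none, were left out; 2 of the 4 are named for the mammary gland of the same 2 cows and may be repeat libraries, and 2 for lymphocytes. For the muscle of male A the column writes LDOR where the title has LDO. Trimmomatic 0.39, STAR, Cufflinks and the assembly UMD3.1 are named, per the submitters' processing notes; settings and annotation are not given in the sources used here. TruSeq libraries were read as pairs of 150 bases, per the labels' protocols.

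The table holds no counts. Ratios of low values put the relative depth of the libraries between 0.708 and 1.41 of the median, and the depth itself is unknown. FPKM summed to 576130 to 964931 per library.

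No identifier could be paired with a symbol, so the lists of pathway and marker genes were not applied, tissue labels were not checked against markers, and no sequence is shown. The members and lists were chosen with earlier results of these data known. The genes named besides FABP3 are the 2 most like it of 5 ranked.

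Values were taken as log2(FPKM + 1), which understates changes of low genes. limma 3.58.1 in R 4.3.3 (trended variances, Benjamini-Hochberg adjustment, threshold 0.05) was fitted over genes that reached 1 FPKM in 2 or more libraries. It was also run on simulated data with the same spread for all genes and no animal effect. That run does not check the fit for spreads as large as those of FABP3 in muscle and lung. Same-numbered samples come from the same animal, and their deviations from the tissue means correlated at a median of 0.18 across genes (0.20 to 0.37 between heart and muscle). Alternatives were rescaling, quantile normalization, a pseudocount of 0.1, no filter, the animal as a block and leaving out each animal. Those on the 10 libraries low in liver traces, on the gland against heart and on gland-restricted genes were chosen after seeing the data. Python 3.11.15, numpy 2.4.6, pandas 2.3.3, scipy 1.17.1 and matplotlib 3.10.9 were used.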

Additional observations from a re-analysis of the deposited data

Results flagged for a closer look

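FABP3 in the adipose tissue of male B (13.1 FPKM) stood apart from the other 3 animals (4.16 to 4.74 FPKM), with a gap of 0.935 of the group's range, past Dixon's critical value at 95%. FABP3 in the lung of the same animal (21.2 FPKM) stood apart likewise, with a gap of 0.892 above 4.32 to 6.15 FPKM. On the log2 scale adipose tissue still passed (0.894) and lung did not (0.793). Of 10 tissues, 2 passed on FPKM and 1 on the log2 scale. Chance passes about 1 in 20 where values are normally distributed, which was not tested, so no excess is read from these counts. In the other 8 tissues male B was at 0.238 to 0.794 of the highest other animal. At least 2-fold above all 3 other animals in male B were 72 genes in adipose tissue and 24 in lung, of 12421 tested, and 5 of them, FABP3 included, in both (6.94% of the first and 20.8% of the second list).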

How the results depend on the processing

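Rescaling to the same sum gave 2428 FPKM in heart, 2518 in the lactating gland and 0.05 for gland over heart on the log2 scale. It also gave 1985 genes higher in heart than muscle, 5343 genes 4-fold higher in the dry gland and a male minus female difference of 0.083 in heart. Quantile normalization gave 5578 FPKM in the lactating gland, 2195 in heart, 3.32 for heart minus muscle, 7.40 for lactating minus dry gland, 1.35 for gland over heart, 1579 genes higher in heart, 1365 higher in muscle, 448 and 429 genes 4-fold higher in the lactating and dry gland, and sex differences of 0.072 in heart and -0.15 in rumen. With the total taken without the 10 most abundant genes, lactating minus dry was 7.84 and gland over heart 1.72. In the lactating gland those 10 include FABP3. The cause of these shifts was not tested. With 1 animal left in a sex, it is taken to vary like the other groups. Leaving out each animal gave male minus female ranges of -0.034 to 1.38 in adipose tissue, -0.23 to 0.21 in heart, -0.94 to 0.44 in liver, 0.42 to 2.05 in lung, -0.20 to 0.31 in rumen and -0.036 to 0.29 in spleen, and 3.93 to 4.38 for heart minus muscle. With the animal as a replicate block no call on FABP3 within a tissue changed (lung 1.23, adjusted p = 0.166 by limma). The contrasts of a tissue with the mean of the others were not refitted in that way. With the block, 3128 and 818 genes were higher in heart and muscle in place of 3120 and 811. The depth is unknown, so low FPKM values carry no counting interval.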
